A study of Mus musculus with 16 samples.

Results

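The cells described here were the Dntt+ lymphoid-primed progenitors of the mouse bone marrow. They were chosen as the cells of the Lin-c-Kit+ sort with at least 2 unique molecular identifiers (UMIs, each a counted RNA molecule) of Dntt, among cells with more than 200 and fewer than 6000 detected genes and at most 10% mitochondrial UMIs. There were 1515 of them among 28155 kept Lin-c-Kit+ cells, and 77636 cell barcodes in all bone marrow and tumor libraries of the series. Because Dntt UMIs chose the cells, the Dntt level is given as a description and was not tested.

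The study asked how IACS-70654, an inhibitor of the bromodomains of the coactivators CBP and P300, changed hematopoiesis in mice carrying 2208L, a transplanted Trp53-null mammary tumor that models neutrophil-enriched triple-negative breast cancer. Female BALB/c mice without a tumor and without treatment (WT), mice bearing 2208L tumors given vehicle, and mice bearing 2208L tumors given IACS-70654 each provided 2 libraries of DAPI-CD45+Lin-c-Kit+ cells. Treatment followed a schedule of 3 days on and 2 days off for 7 days by the submitters' design text and for 6 days in the study's text, and the age at collection was not given in the sources used here. The design text states that cells of 3 mice were pooled for a treatment group, whereas the methods describe every sample as a pool of 3 mice, so the 2 libraries of a group may be separate pools or parts of 1 pool. All p-values below therefore measure only the spread between these libraries, which may be technical. All treated and vehicle animals of these libraries carried the tumor, so the effect of IACS-70654 on these cells without a tumor was not measured. The WT group differed from the vehicle group in the tumor, its transplantation and the vehicle dosing together.

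Dntt encodes terminal deoxynucleotidyl transferase, the polymerase that adds nucleotides without a template at the joints of rearranging antigen receptor genes. In the bone marrow it is switched on early, in multipotent progenitors that carry the cytokine receptor Flt3 and lean toward the lymphoid lineages, before the Rag1 and Rag2 recombinase and the interleukin 7 receptor (Il7r) reach high levels. Ebf1 and Pax5 then commit such cells to the B lineage, and the surrogate light chain genes Vpreb1 and Igll1 and the receptor subunits Cd79a and Cd79b follow.

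The 6 Lin-c-Kit+ libraries held 3231 to 8205 barcodes with 27427163 to 68415534 UMIs, and 2836 to 7517 cells a library were kept. No cell barcode was shared between any pair of these 6 libraries. The Dntt+ cells numbered 152 and 132 in the WT libraries, 276 and 134 in the vehicle libraries and 505 and 316 in the IACS-70654 libraries. Their median depth was 7549 and 6864 UMIs in WT, 7529 and 6676 with vehicle and 5374 and 4926 under IACS-70654, so the treated cells were the shallowest. Shares of cells with a UMI were for this reason also computed after thinning each cell to 3000 UMIs. Cells with fewer UMIs were left out, 2 and 3 Dntt+ cells of WT, 21 and 14 of vehicle and 37 and 32 of IACS-70654. For the share of Dntt+ cells and its division by pro-B markers, 2 Dntt UMIs were required after thinning. This left 103 and 103 Dntt+ cells in WT, 137 and 82 with vehicle and 303 and 207 under IACS-70654. The other thinned values kept the Dntt+ cells chosen before thinning.

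The markers of the label were present. Flt3 stood at 330 to 487 CPM (UMIs of a gene per 1000000 UMIs in the summed counts of the Dntt+ cells of a library) and Il7r at 121 to 191 CPM, while Cd3e, a T cell receptor subunit, was at 0 in 4 of 6 libraries and at most 1.88 CPM. Of the Dntt+ cells, 88.2% and 90.2% had at least 1 Flt3 UMI in WT, 75.4% and 67.2% with vehicle and 79.8% and 80.4% under IACS-70654. Neither Flt3 nor Il7r was detected in 7.89% and 3.79% of the WT cells, 15.9% and 16.4% of the vehicle cells and 12.9% and 12.7% of the IACS-70654 cells. At least 1 Il7r UMI was found in 44.1% and 50% of the WT cells, 39.9% and 47.0% of the vehicle cells and 30.9% and 30.4% of the IACS-70654 cells. Most of the selected cells thus carried Flt3, and Il7r was detected in 30.4% to 50% of them in each library.

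The population was mixed along the B lineage. Ebf1 was detected with 3 or more UMIs in 27 and 33 of the WT cells, 57 and 35 of the vehicle cells and 73 and 39 of the IACS-70654 cells, while 85 to 402 cells a library had no Ebf1 UMI. In the Ebf1-rich cells the median over the 6 libraries was 462 CPM for Vpreb1, 303 CPM for Igll1, 85.1 CPM for Rag1 and 408 CPM for Il7r. In the cells without Ebf1 the same medians were 3.48 CPM for Vpreb1, 0 for Igll1, 1.39 CPM for Rag1 and 87.4 CPM for Il7r. The stem and progenitor genes ran the other way, with Cd34 at 96.8 CPM in the Ebf1-rich cells and 284 CPM in the cells without Ebf1, and Hlf, a transcription factor of stem cells, at 13.1 and 93.7 CPM. At least 1 Il7r UMI was seen in 75.8% to 88.6% of the Ebf1-rich cells and 19.2% to 33.3% of those without Ebf1.

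Markers also shifted with the number of Dntt UMIs in a cell. From cells with 2 to 4 Dntt UMIs, through 5 to 9, to 10 or more, the median level over libraries was 316, 466 and 566 CPM for Flt3, and 75.5, 155 and 269 CPM for Il7r. Satb1, a chromatin organizer of lymphoid progenitors, stood at 348, 458 and 513 CPM, and Notch1, the receptor that directs T lineage choice, at 67.6, 116 and 143 CPM. Hlf was lower in the cells richer in Dntt, at 94.7, 55.7 and 34.7 CPM, and Mpo, the myeloperoxidase of granulocytic progenitors, stood at 1353, 1139 and 1021 CPM. Vpreb1 did not follow Dntt, with 80.8, 97.3 and 36.0 CPM. Around the cutoff, cells with 1, 2 and 3 Dntt UMIs had Flt3 at 130, 267 and 317 CPM, Il7r at 12.3, 63.1 and 96.0 CPM, and Mpo at 2372, 1477 and 1463 CPM, so the cells just outside the rule carried less of the lymphoid markers than those just inside. These levels across Dntt bins are a description of cells chosen by Dntt, and were not tested.

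**Figure D1:**
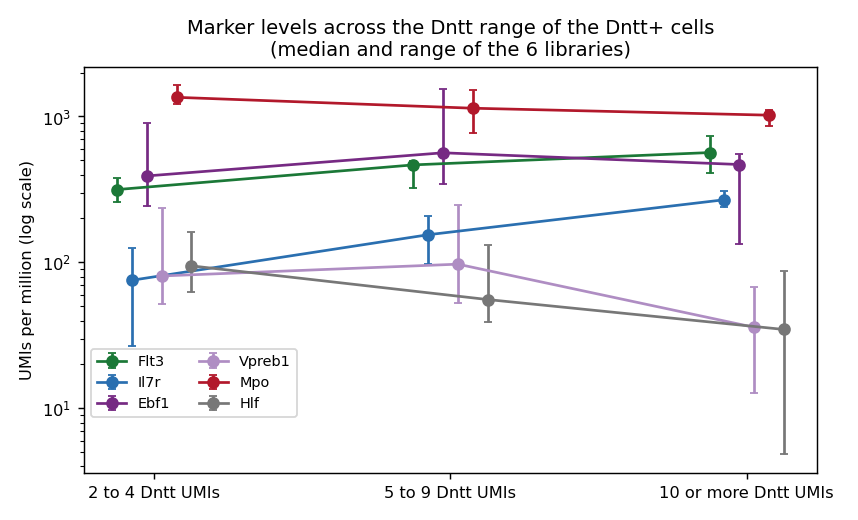
Levels of 6 marker genes in the Dntt+ cells, split by the number of Dntt UMIs in a cell (x axis). The y axis is CPM on a log scale; points are the median and bars the lowest and highest of the 6 libraries. Flt3 and Il7r are highest in the cells with 10 or more Dntt UMIs, and Hlf and Mpo are highest in the cells with 2 to 4.

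The Dntt level, which the selection used, is given as a description. It stood at 929 and 1156 CPM in WT, 713 and 841 CPM with vehicle and 915 and 1049 CPM under IACS-70654, where the treated and WT libraries overlapped. Cells with exactly 2 Dntt UMIs made up 15.8% and 9.09% of the selection in WT, 29.0% and 26.1% with vehicle and 30.3% and 25.6% under IACS-70654. Cells with more than 10 made up 26.3% and 34.8%, 18.5% and 21.6%, and 18.2% and 18.7%. These bins count raw UMIs, and depth per cell was lower with IACS-70654, as given above; its part in them was not tested.

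Compared with Flt3+ progenitors without Dntt, the Dntt+ cells carried more RNA of named lymphoid genes such as Il7r, Satb1 and Notch1 and less of neutrophil and monocyte genes such as Mpo and Csf1r. The comparison cells were 1741 cells of the same 6 libraries with at least 2 Flt3 UMIs and no Dntt UMI, with a median depth of 6385 to 11393 UMIs. Neither Dntt nor Flt3, which define the classes, was read as a result, and the test was edgeR's quasi-likelihood test on summed counts with each library as a block in which a gene was called if its Benjamini-Hochberg adjusted p was below 0.01 and its log2 difference beyond 0.5. Of 10922 genes tested, 6.04% were called, 401 (3.67%) higher and 259 (2.37%) lower in the Dntt+ cells. A gene that passed the filter on low counts only through the class where it is high had to differ, so the lists are counted over the 9995 genes that passed it in each class alone, of which 4.96% were called, 2.89% higher and 2.07% lower (median log2 difference 0.00). Of 16 such genes of lymphoid priming, 10 were higher and 1 lower (median 0.60), and 5 more, Rag1 and Ly6d among them, passed only in the Dntt+ cells. Of 6 B lineage genes Cd79b and Foxo1 were higher and none was lower (median 0.53), and 9 more, Ebf1 and Pax5 among them, passed only in the Dntt+ cells. Of 23 neutrophil and monocyte genes 11 were lower and none higher (median −0.56).

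Il7r, the receptor for interleukin 7, was at 121 to 191 CPM in the Dntt+ cells and 1.08 to 11.2 CPM in the Flt3+ cells, a log2 difference of 4.56 ± 0.33 (SE, adjusted p = 0.000374 by edgeR). Ebf1, the B lineage determinant, was at 288 to 867 CPM against 0.436 to 7.78 CPM. Rag1, one of the recombinase pair, ran from 10.9 to 27.2 CPM in the Dntt+ cells and was at 0 in 5 of 6 Flt3+ sums, with 0.259 CPM in the other. The ranges of Il7r did not overlap between the classes. Ebf1 and Rag1 passed the filter on low counts only in the Dntt+ cells, so their values are a description. Smaller differences were found for genes that both classes expressed well: Satb1 at 350 to 549 CPM against 144 to 199 CPM (log2 difference 1.30 ± 0.05), Notch1 at 81.7 to 137 CPM against 30.9 to 50 CPM (1.25 ± 0.08), and Ikzf1, which encodes the lymphoid factor Ikaros, at 462 to 542 CPM against 298 to 376 CPM (0.61 ± 0.04). In the V(D)J recombination list the end-joining genes Xrcc5 and Xrcc6 were the 2 calls, both higher, among 10 genes that passed the filter in each class, while Rag1 and Rag2 passed it only in the Dntt+ cells.

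Among the lower genes, Mpo was at 1116 to 1481 CPM against 2273 to 2941 CPM (log2 difference −1.06 ± 0.04), Csf1r, the receptor for macrophage colony-stimulating factor, at 10.9 to 17.8 CPM against 25.7 to 50.6 CPM (−1.47 ± 0.13), and Irf8, a factor of monocyte and dendritic cell fate, at 86.6 to 187 CPM against 160 to 355 CPM (−0.97 ± 0.08). The granule genes were nevertheless far from absent in the Dntt+ cells, whose summed level of 5 neutrophil progenitor markers was 3230.2 to 5091 CPM and averaged 7512 CPM over the Flt3+ sums. Erythroid markers (6 genes) summed to 92.6 to 278 CPM and basophil and mast cell markers (4 genes) to 53.3 to 196 CPM; how much of these came from free RNA or doublets was not tested. Of the 5 plasmacytoid dendritic cell markers, Cd209d and Klk1 were at 0 in all 6 libraries, and the 5 summed to 79.8 to 90.9 CPM. Mature B cell markers (4 genes) summed to 8.28 to 50.8 CPM.

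The share of Dntt+ cells was higher with IACS-70654. They made up 3.92% and 4.34% of kept Lin-c-Kit+ cells in WT, 4.2% and 4.72% with vehicle, and 6.72% and 7.32% under IACS-70654. The exact Clopper-Pearson 95% intervals, which cover counting error only, reached at most 5.57% in a vehicle library and started at 6.16% in the lower IACS-70654 library. Both treated libraries lay above all 4 others. The mean was 7.02% ± 0.43 (SD, n = 2) with IACS-70654 and 4.46% ± 0.37 with vehicle, a difference of 2.56 percentage points or 1.57-fold. The two-sided exact permutation test gave p = 0.333, the smallest value that 2 libraries against 2 can reach, so no threshold could be passed. Shares are relative to the other sorted cells, and absolute cell numbers cannot be read from these libraries. The paper reports that IACS-70654 lowered the fractions of some granulocyte-monocyte, monocyte and neutrophil progenitors among such cells. Their part in the share of Dntt+ cells was not tested.

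The treated cells were shallower, so the shares were also compared at equal depth. At 3000 UMIs a cell the shares were 2.80% and 3.58% in WT, 2.21% and 3.09% with vehicle and 4.48% and 5.34% under IACS-70654, a ratio of 1.85 between IACS-70654 and vehicle (1.57 without thinning) and of 1.54 between IACS-70654 and WT (1.70 without thinning). Per 100 Flt3+ cells without Dntt there were 73.4 and 71.0 Dntt+ cells in WT, 71.0 and 77.0 with vehicle and 103 and 107 under IACS-70654. In erythroid cells of the same libraries (2 or more Klf1 UMIs, median depth 13430 to 15222 UMIs), which should lack Dntt, 0.53% to 2.04% had at least 2 Dntt UMIs, and after thinning 0% to 1.03%, where both treated libraries were at 0. Without thinning the treated libraries stood at 1.40% and 1.09%, inside the vehicle range or below it and 2.01-fold the WT mean of libraries at 0.53% and 0.708%, without overlap. Its part in the share against WT was not tested.

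Between vehicle and WT the shares of cells with at least 2 Dntt UMIs overlapped. The difference was 0.33 percentage points (exact permutation p = 0.667, two-sided), and it moved with the definition of the cells. Vehicle was higher than WT by 1.20 points with at least 1 Dntt UMI, lower by 0.389 points with at least 3, lower by 0.539 points after thinning and lower by 0.517 points when a Flt3 UMI was also required. The libraries did not overlap with at least 1 Dntt UMI or with the Flt3 UMI, and these settings gave differences of opposite direction.

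**Figure D2:**
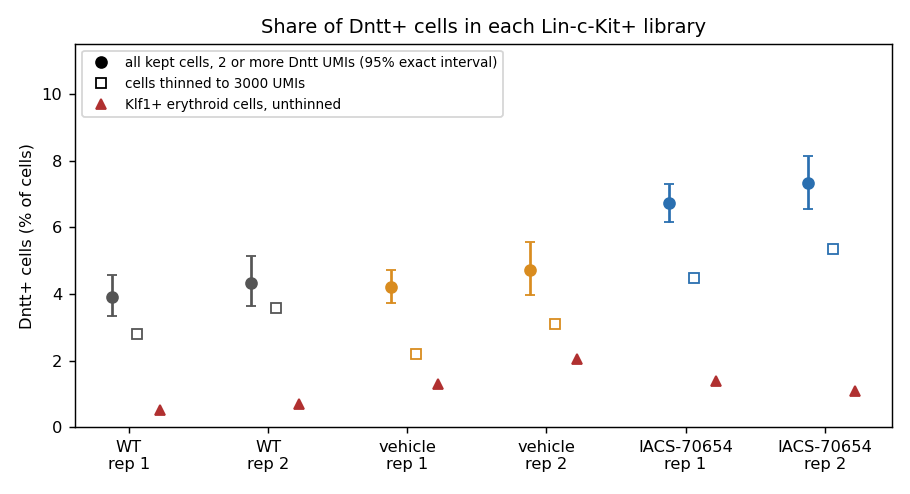
Share of Dntt+ cells (y axis, percent of cells) in each of the 6 Lin-c-Kit+ libraries (x axis), for all kept cells (circles) and after thinning to 3000 UMIs (squares), with the unthinned share among Klf1+ erythroid cells as triangles; error bars are exact 95% binomial intervals of the unthinned share. Both IACS-70654 libraries lie above the vehicle and WT libraries on either scale.

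The Dntt+ cells were then divided by whether they carried a UMI of 6 pro-B markers (Ebf1, Vpreb1 and Igll1 among them). Per 1000 kept Lin-c-Kit+ cells there were 26.1 and 26.7 Dntt+ cells without such a UMI in WT, 29.5 and 31.0 with vehicle and 51.9 and 57.4 under IACS-70654. Dntt+ cells with at least 1 pro-B UMI numbered 13.2 and 16.8 in WT, 12.5 and 16.2 with vehicle and 15.3 and 15.8 under IACS-70654, so the 3 groups overlapped. The unmarked cells were 1.81-fold more frequent with IACS-70654 than with vehicle and the marked cells 1.08-fold, with exact permutation p of 0.333 and 1. Whether the ratios of the marked and unmarked cells differed was not tested.

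The division was repeated at equal depth. After thinning to 3000 UMIs the unmarked cells numbered 20.1 and 23.6 per 1000 in WT, 16.3 and 21.1 with vehicle and 34.6 and 44.4 under IACS-70654, and the marked cells 7.88 and 12.2, 5.81 and 9.80, and 10.2 and 9.03. At this depth the ratio of IACS-70654 to vehicle was 2.11 for the unmarked and 1.23 for the marked cells (exact permutation p of 0.333 and 0.667). The marked share of the thinned Dntt+ cells was 28.2% and 34.0% in WT, 26.3% and 31.7% with vehicle and 22.8% and 16.9% under IACS-70654. Without thinning it was 33.6% and 38.6% in WT, 29.7% and 34.3% with vehicle and 22.8% and 21.5% under IACS-70654. The treated libraries had the lowest marked shares on both scales, while the number of marked cells per 1000 Lin-c-Kit+ cells overlapped with the other groups.

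**Figure D3:**
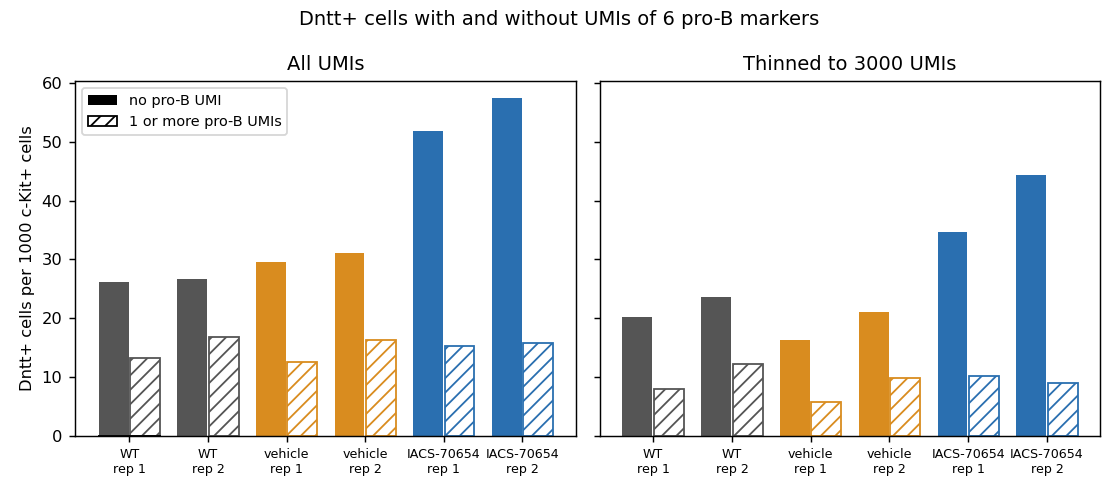
Dntt+ cells per 1000 kept Lin-c-Kit+ cells (y axis) in each library (x axis), with no UMI of 6 pro-B markers (filled) and with at least 1 (hatched), before and after thinning to 3000 UMIs. The filled bars are tallest in both IACS-70654 libraries, and the hatched bars overlap between the groups.

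Within the Dntt+ cells, chosen before thinning and then thinned to 3000 UMIs, the shares with a UMI of 11 marker genes were compared. With IACS-70654 and vehicle, 7 of the 11 had libraries that did not overlap, each at an exact permutation p of 0.333, the smallest this design allows, and an adjusted p of 0.524. Over all 10886 genes seen in at least 1% of these cells, the libraries of the same groups did not overlap for 43.4%, with the treated libraries higher for 25.7% and lower for 17.6%. The 11 genes were chosen with earlier results known, and their count is a description. Il7r was detected in 32.0% and 35.7% of the cells in WT, 23.5% and 36.7% with vehicle and 20.5% and 21.8% under IACS-70654. Rag1 was detected in 7.33% and 3.10%, 4.71% and 9.17%, and 2.14% and 1.76%. Ebf1 was detected in 20.0% and 29.5%, 18.8% and 24.2%, and 16.7% and 13.4%. These 3 genes and Ly6d, Siglech and Mpo were lowest with IACS-70654. Siglech was seen in at most 3.33% of the cells of a library. Mpo differed little, in 83.92% and 82.5% of the vehicle cells and 82.48% and 81.69% of the IACS-70654 cells. Cd34 alone was highest, in 48.7% and 48.8% of the WT cells, 50.2% and 41.7% of the vehicle cells and 56.6% and 62.0% of the IACS-70654 cells. In the erythroid cells Il7r was seen in at most 1.54% and Ebf1 in at most 1.03% at this depth. Between vehicle and WT the libraries overlapped for each of the 11 genes at this depth, where 35.4% of all genes did not overlap, and between IACS-70654 and WT they did not overlap for 7, against 41.9% of all genes.

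Gene expression was then compared on the summed counts of the Dntt+ cells, 1064640 to 3499587 UMIs a library, with edgeR's quasi-likelihood test and the calling rule given above. In such sums fewer cells of a kind and less RNA per cell cannot be told apart, so a fall of B lineage RNA could be either. The vehicle libraries enter both of the first comparisons below, whose values are therefore not independent.

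With IACS-70654 against vehicle, 340 of 10203 genes (3.33%) were called, 140 higher and 200 lower. The calls included lower genes of the B lineage and higher genes of stem and multipotent cells. Of 22 tested lymphoid priming genes 4 were lower and none higher (median −0.17), of 15 B lineage genes 6 were lower and none higher (median −0.93), and of 15 stem genes 5 were higher and none lower (median 0.49), where the median over all genes was 0.00. DESeq2, whose filter gave an adjusted p to 15, 7 and 12 genes of these lists, called Cd52 of the first, Cd24a of the second and 5 of the third, Meis1, Kit, Adgrl4 and Cd34 among them. Counting genes lower with IACS-70654 over all genes, the background was 1.96%, and counting higher genes it was 1.37%. In the Flt3+ cells without Dntt the same comparison called 676 of 10551 genes, 360 higher and 316 lower. There 10 of 16 stem genes and 9 of 20 quiescence genes were higher and none lower, and 11 of 22 S phase genes were lower and none higher. Cd24a of 6 tested B lineage genes and Cd52 of 17 lymphoid priming genes were lower there too. The changes of the stem, quiescence and S phase lists and of Cd24a and Cd52 were thus not confined to the Dntt+ cells. For the other lower lymphoid and B lineage genes this was not shown. Rag1, Rag2, Ly6d, Cd79a, Pax5 and Bst1 were not tested in the Flt3+ cells, and Cd79b and Bach2 were not called lower there.

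Rag1 was at 16.2 and 13.2 CPM in WT, 23.3 and 27.2 CPM with vehicle and 11.4 and 10.9 CPM under IACS-70654, a log2 change of −1.19 ± 0.26 (edgeR adjusted p = 0.000412). Rag2, its partner, was at 14.7 and 16.0, 18.4 and 28.1, and 9.43 and 7.24 CPM (−1.38 ± 0.29, edgeR adjusted p = 0.000193). Both vehicle libraries lay above the other 4 for each gene, without a call between vehicle and WT, and against WT neither was called with IACS-70654 (adjusted p of 0.454 and 0.097). The Rag1 call was lost without vehicle replicate 1 or IACS-70654 replicate 1, and the Rag2 call without vehicle replicate 2, after thinning, with at least 3 Dntt UMIs, or without the cells carrying pro-B UMIs. The remaining 10 tested genes of the V(D)J list were not called.

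Cd79a, a signaling subunit of the B cell receptor, was at 21.6 and 31.9 CPM in WT, 56.1 and 87.1 CPM with vehicle and 24.9 and 39.8 CPM under IACS-70654 (−1.19 ± 0.22, edgeR adjusted p = 0.00144). Cd24a, a surface protein of B lineage precursors, was at 97.2 and 114, 134 and 139, and 74.6 and 71.9 CPM (−0.94 ± 0.11). Mzb1, a chaperone of immunoglobulin assembly, was at 32.4 and 54.5, 63.8 and 84.3, and 12 and 11.4 CPM, the largest fall among the named genes (−2.65 ± 0.20, edgeR adjusted p = 1.2e-21). The treated libraries lay below both other groups for Cd24a and Mzb1, and within the WT range or above it for Cd79a. Cd79b, Pax5, Bach2 and Bst1 also passed the test. The calls of Cd79b and Bach2 were lost without the cells carrying pro-B UMIs or without IACS-70654 replicate 1, and that of Bach2 also with DESeq2 and after thinning. The Pax5 call was lost after thinning, with at least 3 Dntt UMIs, without the cells of the highest doublet scores and without vehicle replicate 2 or IACS-70654 replicate 2, while the Cd79a call was lost without the cells of the highest doublet scores. Ebf1 (520 and 867 CPM with vehicle, 461 and 458 with IACS-70654), Vpreb1 and Igll1 did not pass, at adjusted p of 0.411, 0.356 and 0.637.

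The 6 pro-B markers include Cd79a and Pax5, and the uncalled Ebf1 was the most abundant of them. Their summed level was 410 and 538 CPM in WT, 767 and 1307 CPM with vehicle and 610 and 679 CPM under IACS-70654. The treated libraries thus lay below the vehicle libraries and above the WT libraries. With pro-B marked cells left out, 228 genes were called, 90 higher and 138 lower. Arpp21 (91.3 and 133 CPM with vehicle, 37.1 and 40.3 CPM with IACS-70654, −1.52 ± 0.20) and Myl10, both far higher in Dntt+ than in Flt3+ cells, remained called there. Of the 55 genes named by rule for this comparison, 36 were called in that subset, 14 were not, and Rag1, Cd79a, Pax5, Mzb1 and Ly6d gave no value, so their calls were not tested without these cells. Ly6d, an antigen of B-biased lymphoid progenitors, was at 39.4 and 86.4 CPM in WT, 34.8 and 38.4 with vehicle and 18.0 and 16.0 under IACS-70654 (−1.12 ± 0.27, edgeR adjusted p = 0.00873), from 7 to 24 cells a library, 5 of which held 51.1% to 93.5% of its UMIs.

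Promoters of the lower B lineage and recombinase genes were searched for motifs because these genes moved together. They are RefSeq windows of GRCm38.p6, the assembly that mm10 of the files denotes, from 250 bases before to 50 after the annotated start, and 5 of the 10 called genes of the lymphoid and B lineage lists had such a window. Capitals mark the E box CAGGTG, searched on both strands, a motif bound by the E proteins of lymphoid cells. It was present in 2 of the 5, against 20.2% of all 32851 windows, and the Ebf1 motif (TCCC and GGGA with 2 bases between them) was in none of the 5 and in 0.904% of all windows. Only exact matches to these letters were counted. Partial Ebf1 sites were not searched, so the windows may still hold such sites. The Rag1 window (chr2:101649483-101649782, minus strand) held its E box 135 bases and the Cd79a window (chr7:24897247-24897546, plus strand) 154 bases before the start, and the Dntt window (chr19:41029025-41029324, plus strand) held neither motif. Printed below are the 2 windows with an E box and that of Dntt. The windows of Rag2, Pax5 and Bach2, which held neither motif, are not printed.
Rag1: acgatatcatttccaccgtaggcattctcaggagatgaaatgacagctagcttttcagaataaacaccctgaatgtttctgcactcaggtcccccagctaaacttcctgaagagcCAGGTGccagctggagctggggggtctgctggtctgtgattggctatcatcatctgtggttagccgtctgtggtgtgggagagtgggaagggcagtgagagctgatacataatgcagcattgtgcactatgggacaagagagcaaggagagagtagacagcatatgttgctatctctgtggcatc
Cd79a: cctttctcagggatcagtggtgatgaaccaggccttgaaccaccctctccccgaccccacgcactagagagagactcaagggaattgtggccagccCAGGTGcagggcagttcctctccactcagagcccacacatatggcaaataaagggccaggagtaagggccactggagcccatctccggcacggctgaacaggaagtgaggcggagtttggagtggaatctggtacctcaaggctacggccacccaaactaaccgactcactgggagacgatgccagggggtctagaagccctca
Dntt: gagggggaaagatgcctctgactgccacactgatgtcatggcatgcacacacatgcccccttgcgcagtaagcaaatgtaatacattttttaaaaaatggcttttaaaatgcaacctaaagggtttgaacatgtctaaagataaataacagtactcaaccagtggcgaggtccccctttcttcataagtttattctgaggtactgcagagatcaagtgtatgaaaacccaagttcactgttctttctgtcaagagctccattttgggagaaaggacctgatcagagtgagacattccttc
A match of letters is a description of the window, and binding was not measured.

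Of the stem and multipotency genes the 5 calls were all higher. The summed level of 6 stem cell markers, of which Ifitm1 was the most abundant, was instead lower with IACS-70654 than with vehicle, at 571 and 456 CPM in WT, 994 and 910 CPM with vehicle and 605 and 603 CPM under IACS-70654. Meis1, a homeobox factor of stem cells, was at 353 and 348 CPM in WT, 376 and 320 CPM with vehicle and 610 and 681 CPM under IACS-70654, a log2 change of 0.81 ± 0.08 (edgeR adjusted p = 7.6e-15). Kit, the receptor for stem cell factor and the antigen of the sort, was at 94.9 and 103, 100 and 109, and 167 and 166 CPM (0.63 ± 0.10, edgeR adjusted p = 1.74e-06). Hlf was at 61.7 and 35.7, 70.0 and 79.6, and 116 and 118 CPM (0.61 ± 0.12, edgeR adjusted p = 0.000128). For all 3 genes the treated libraries lay above the 4 others. Adgrl4, an adhesion receptor, was also called, and Cd34 (0.50 ± 0.09) and Satb1 (0.47 ± 0.08) were higher at edgeR adjusted p of 3.7e-06 and 5.45e-06 but below the size limit. The Hlf call was lost with DESeq2, after thinning and without vehicle replicate 1, and the Adgrl4 call under 7 of 16 alternatives: after thinning, with at least 3 Dntt UMIs, with a Flt3 UMI required, without the cells of the highest doublet scores, without those carrying pro-B UMIs and without vehicle replicate 2 or IACS-70654 replicate 2. The Meis1 and Kit calls held under each alternative that gave them a value.

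The genes that rose most included Dach1, a nuclear factor of progenitor cells, at 85.7 and 110 CPM in WT, 93.7 and 85.3 with vehicle and 281 and 285 under IACS-70654 (1.58 ± 0.10, edgeR adjusted p = 9.8e-28). Malat1, an abundant nuclear long noncoding RNA, was at 6537 and 6861, 6089 and 6450, and 11618 and 12644 CPM (0.89 ± 0.04), and over all kept Lin-c-Kit+ cells it was at 4831 and 4996 with vehicle and 7990 and 8203 under IACS-70654. Txnip, which binds thioredoxin and restrains glucose uptake, was at 83.3 and 81.7, 64.7 and 53.4, and 125 and 155 CPM (1.12 ± 0.12). The treated libraries stood above both other groups for all 3. Of 19 tested genes of quiescence, Txnip, Malat1 and the cell cycle inhibitors Cdkn1a (0.68 ± 0.17) and Cdkn1b (0.61 ± 0.17) were higher and none lower, although both Cdkn1 calls were lost after thinning, with at least 3 Dntt UMIs, without vehicle replicate 1 and without IACS-70654 replicate 1, and that of Cdkn1b under 8 of 15 alternatives in all, IACS-70654 replicate 2 left out and the cells with pro-B UMIs left out among them. Ddah2, Sema3d, H1fx, Arhgap6, Ptms and Prr13 rose by 0.91 to 1.85 on the log2 scale, the Sema3d call being lost with at least 3 Dntt UMIs and the Prr13 call after thinning.

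Among genes of DNA replication, 5 were called. Of 22 S phase genes 5 were called lower, Rrm2, Cdc6, Mcm5, Tyms and Fen1, and none higher, with a median of −0.38 and no gene above 0. Mcm5, a subunit of the replicative helicase, was at 82.6 and 72.3 CPM in WT, 90.4 and 81.5 with vehicle and 62.3 and 47.1 under IACS-70654 (−0.69 ± 0.13, edgeR adjusted p = 4.86e-05). All 5 calls were lost without vehicle replicate 1, that of Mcm5 also without IACS-70654 replicate 2, that of Rrm2 after thinning, those of Cdc6 and Fen1 under most alternatives, and DESeq2 called 0 of the 14 genes to which it gave an adjusted p. Of 24 G2/M genes only Ccna2 was called (−0.57 ± 0.16), a call lost under 8 of 15 alternatives, which include leaving out any vehicle or IACS-70654 library, and Mki67, the proliferation antigen, was detected in 36.9% and 30% of thinned vehicle cells and 29.3% and 32.7% of thinned IACS-70654 cells, which overlapped.

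The other fixed lists held fewer calls. Id2 and Tox, regulators of innate lymphoid and T lineage cells, were higher among 8 tested T and innate lymphoid genes: Id2 was at 13.1 and 9.37 CPM with vehicle and 28.0 and 25.3 CPM under IACS-70654 (1.12 ± 0.26, edgeR adjusted p = 0.00107), a call lost under 7 of 15 alternatives, without either vehicle library, without IACS-70654 replicate 1 and without the cells carrying pro-B UMIs among them, and Tox at 91.3 and 108 against 165 and 164 CPM (0.70 ± 0.11, lost without vehicle replicate 1 and, at 0.44, without the cells carrying pro-B UMIs). Over the 8 T and innate lymphoid genes the median was −0.45, with 3 above 0. A separate set of 5 T and NK cell markers, Nkg7 the most abundant, summed to 133 and 112 CPM with vehicle and 60.6 and 60.5 CPM under IACS-70654. Of 5 tested dendritic cell genes Irf8 was lower (−0.73 ± 0.14, lost with DESeq2, with at least 3 Dntt UMIs and without the cells of the highest doublet scores). Of 23 neutrophil and monocyte genes Ly86, Nkg7, Hp and Lyz2 were lower and S100a8 was higher, the Hp call being lost without vehicle replicate 1 or without the cells of the highest doublet scores and the Nkg7 call without the cells rich in S100a8, S100a9 or Igkc. A set of 5 monocyte markers, Lyz2 among them, summed to 212 and 135 CPM in WT, 247 and 267 CPM with vehicle and 145 and 138 CPM under IACS-70654. In the interferon list (24 tested) Oasl2 and Rtp4 were higher and Ifitm1 and Ly6e lower, H2-DMa was the 1 call among 4 MHC class II genes, and Pa2g4 and Apoe, both lower, were the only calls among 22 genes of ribosome biogenesis and 9 erythroid and megakaryocyte genes. The calls of Rtp4 and Apoe were lost without vehicle replicate 1 or IACS-70654 replicate 1, and those of Rtp4 and Pa2g4 without IACS-70654 replicate 2 and after thinning. The calls of Apoe and Ly6e were also lost without the cells carrying pro-B UMIs and with a Flt3 UMI required, those of Apoe and Pa2g4 without the cells of the highest doublet scores, those of Apoe and H2-DMa with DESeq2, that of Apoe with at least 3 Dntt UMIs and that of H2-DMa after thinning. None of 14 MHC class I, 15 immediate early or 19 acetyl-lysine writer, eraser and reader genes was called by edgeR. Of these lists 3, 9 and 2 genes had an unadjusted edgeR p under 0.05, as did 2405 of all 10203 genes. DESeq2 called 0 of the 5, 7 and 9 with an adjusted p. Crebbp and Ep300, which encode the drug's targets, were at 174 and 160 against 221 and 219 CPM and 74.9 and 62.8 against 87.2 and 86.4 CPM, with log2 changes of 0.33 ± 0.09 and 0.24 ± 0.13. Among 20 cytokine receptors Kit was the 1 call, and Il7r (−0.29 ± 0.13) and Flt3 (0.28 ± 0.08) were not called, at edgeR adjusted p of 0.189 and 0.0182.

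S100a8, a neutrophil calcium-binding protein, had the largest rise among the named genes, at 56.3 and 31.9 CPM in WT, 46.7 and 29.0 with vehicle and 153 and 162 under IACS-70654 (1.88 ± 0.14). Its UMIs were concentrated, 5 cells holding 64.7% and 87.5% of them in the treated libraries. Without cells of 10 or more S100a8 or S100a9 UMIs (or 100 of Igkc) the change was 0.27 and the call was lost, as it was without the cells of the highest doublet scores or those carrying pro-B UMIs. The sum of 6 mature neutrophil markers was at 60.1 to 92.6 CPM in WT, 48.7 to 113 CPM with vehicle and 328 to 338 CPM with IACS-70654. Nearly all of this sum was S100a8 and S100a9, so it says little of the other markers. S100a9 was at 35.5 and 25.4 CPM in WT, 65.5 and 18.7 with vehicle and 171 and 174 under IACS-70654. Over all kept Lin-c-Kit+ cells S100a8 was at 155 in each vehicle library and 764 and 870 CPM in the treated libraries.

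Lgals1, the lectin galectin 1, was at 621 and 509 CPM in WT, 678 and 665 with vehicle and 255 and 289 under IACS-70654 (−1.37 ± 0.08, edgeR adjusted p = 1.41e-27), and over all kept cells it was at 1042 and 1060 with vehicle and 435 and 440 under IACS-70654. Bex6 was at 139 and 98.6, 95.8 and 69.3, and 24.9 and 22.2 CPM (−1.91 ± 0.16). The treated libraries were below both other groups for both genes. Drc7 and Lat2 fell by 1.33 and 1.18 on the log2 scale, the Lat2 call being lost after thinning.

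**Figure D4:**
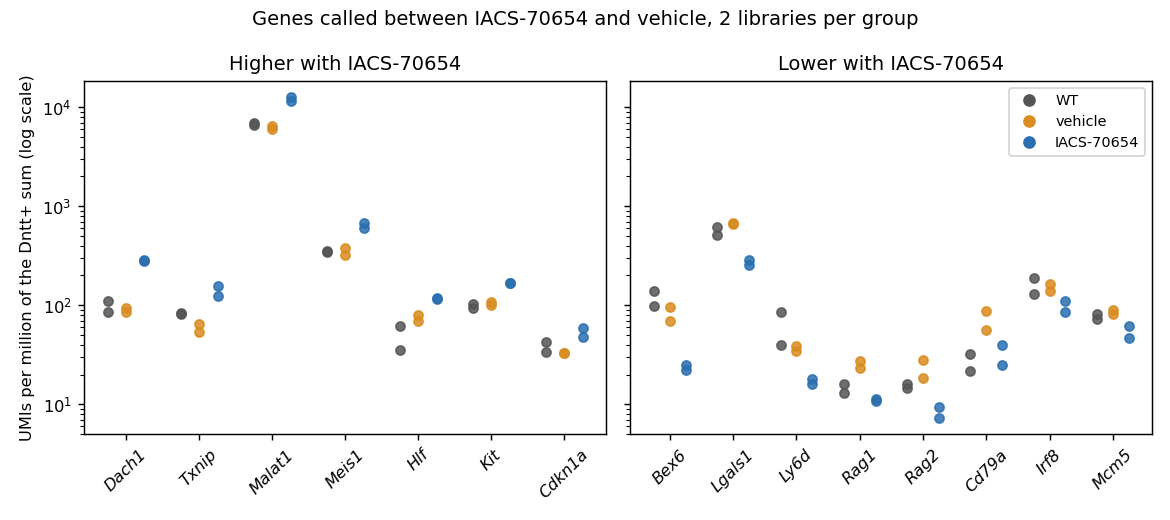
Levels of 15 called genes in the Dntt+ cells of each library, 7 higher (left) and 8 lower (right) with IACS-70654 than with vehicle; the y axis is CPM on a log scale and each point is 1 library. Treated points lie above or below both vehicle points for every gene shown. For several genes, Rag1, Rag2, Cd79a, Lgals1 and Hlf included, the vehicle points also lie above the WT points.

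Between vehicle and WT, 32 of 10203 genes (0.314%) were called, 13 (0.127%) higher and 19 (0.186%) lower. Ifitm1, an interferon-induced membrane protein, was at 299 and 226 CPM in WT, 685 and 619 CPM with vehicle and 247 and 250 CPM under IACS-70654. It rose by 1.29 ± 0.09 on the log2 scale with vehicle against WT (edgeR adjusted p = 2.11e-20) and was lower by the second comparison (−1.46 ± 0.08), so that the treated libraries lay within the WT range. Over all kept Lin-c-Kit+ cells it was at 308 and 333, 482 and 528, and 183 and 169 CPM, where the vehicle libraries were again highest but the treated libraries lay below WT. Ifitm1 was the 1 call among 24 tested interferon genes, whose median was 0.10. Wfdc17 was at 174 and 133, 343 and 350, and 171 and 154 CPM (1.14 ± 0.10 for vehicle against WT), again with both vehicle libraries above all others.

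Angpt1, the ligand of the Tie2 receptor, was at 464 and 407 CPM in WT, 234 and 257 with vehicle and 378 and 321 under IACS-70654 (−0.87 ± 0.09, edgeR adjusted p = 6.72e-13), and Hmga2, a chromatin protein of fetal and self-renewing cells, at 232 and 271, 166 and 117, and 116 and 128 CPM (−0.78 ± 0.11). Il12a, which encodes a subunit of interleukin 12, was the 1 lymphoid priming gene called, at 113 and 129, 79.8 and 77.8, and 57.7 and 69.8 CPM (−0.62 ± 0.13, lost under 5 of 15 alternatives: after thinning, with a Flt3 UMI required, without the cells carrying pro-B UMIs and without WT replicate 2 or vehicle replicate 1). Gm47283 was at 188 and 162, 66.3 and 62.8, and 52.3 and 65.7 CPM, and its level over all kept cells fell alike, from 184 and 167 in WT to 59.7 and 59.8 CPM with vehicle. Of the named genes Ifitm1, Wfdc17, Angpt1, Hmga2 and Gm47283 were called under each alternative that gave them a value, and the other named calls were each lost under at least 1. Nusap1 and Cenpf, genes of mitosis, were called higher among 24 G2/M genes (median 0.38), and both calls were lost without the cells carrying pro-B UMIs, with a Flt3 UMI required or without WT replicate 1, and that of Cenpf without vehicle replicate 2 or the cells of the highest doublet scores. No B lineage gene of 15 was called with vehicle against WT by edgeR, although 8 had an unadjusted p under 0.05, as did 1079 of all 10203 genes. Of the 3 with a DESeq2 adjusted p 1 was called, Ighm, which was lower with vehicle, at 1033 and 1354 CPM in WT and 476 and 281 CPM with vehicle. In WT 1 cell a library held 74.7% and 79.8% of the Ighm UMIs, and with vehicle 1 cell held 49.6% and 4.33%. The median of the 15 was 0.90 and 13 of them were above 0.

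With IACS-70654 against WT, 273 genes (2.68%) were called, 107 (1.05%) higher and 166 (1.63%) lower. Of 15 stem genes 6 were higher, Hlf, Adgrl4, Meis1, Kit and Erg among them, and none lower. Notch1, at 122 and 137 CPM in WT, 95.8 and 86.2 with vehicle and 81.7 and 90.0 under IACS-70654, was lower than in WT by 0.68 ± 0.12 on the log2 scale (edgeR adjusted p = 1.16e-05), as were Ly6d, Il12a and Cd52 of the lymphoid list. Of the B lineage genes Cd24a and Bach2 were called lower and none higher (median 0.04), both calls being lost with DESeq2, after thinning, with at least 3 Dntt UMIs and without WT replicate 2, and that of Bach2 without IACS-70654 replicate 1 or the cells carrying pro-B UMIs. DESeq2 instead called Ighm and Igkc of this list, both at lower CPM than in WT. In the WT libraries 1 cell held 74.7% and 79.8% of the Ighm UMIs and 96.3% and 96.9% of the Igkc UMIs. The Kit and Erg calls were lost after thinning. Pim1, a kinase induced by cytokine receptors, was at 171 and 157, 261 and 237, and 394 and 471 CPM (1.30 ± 0.09), and was also called higher with vehicle than in WT (0.59 ± 0.10, lost after thinning, without the cells carrying pro-B UMIs and without vehicle replicate 1). Bfsp2 was at 64.8 and 85.5, 40.5 and 48.7, and 21.7 and 26.9 CPM (−1.73 ± 0.18).

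To ask where the Dntt+ cells responded differently from the Flt3+ cells without Dntt, the interaction of cell class and group was tested over the 12 sums. For IACS-70654 against vehicle 34 of 10922 genes (0.311%) were called, 10 (0.0916%) with a higher and 24 (0.22%) with a lower change in the Dntt+ cells, and for vehicle against WT 10 genes (0.0916%), 5 each way (0.0458%). The log2 change of Hlf was 0.61 in the Dntt+ cells and 1.38 in the Flt3+ cells, where it was at 69.0 and 71.8 CPM with vehicle and 188 and 193 CPM under IACS-70654; the interaction was −0.76. Adgrl4, Angpt1 and Ctla2a, 3 more stem genes, were also called with lower changes in the Dntt+ cells, and no gene of that list of 17 was called with a higher one. Bach2, a repressor that favors the lymphoid over the myeloid program, was at 110 and 113 CPM with vehicle and 72.3 and 82.2 CPM under IACS-70654 in the Dntt+ cells, and at 41.4 and 49.3 and 55.0 and 60.2 CPM in the Flt3+ cells, an interaction of −0.92. None of the 22 tested lymphoid priming genes was called in this interaction. On simulated counts the interaction test recovered 1.64% of 1.5-fold, 44.9% of 2-fold and 85.7% of 3-fold changes, so smaller differences could be missed. The interaction calls of Hlf and Bach2 were lost without any 1 of the 4 vehicle and treated libraries, those of Adgrl4 and Ctla2a without vehicle replicate 1 or IACS-70654 replicate 1 and that of Angpt1 without vehicle replicate 1 or IACS-70654 replicate 2, and those of Hlf, Angpt1 and Bach2 also after thinning.

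**Figure D5:**
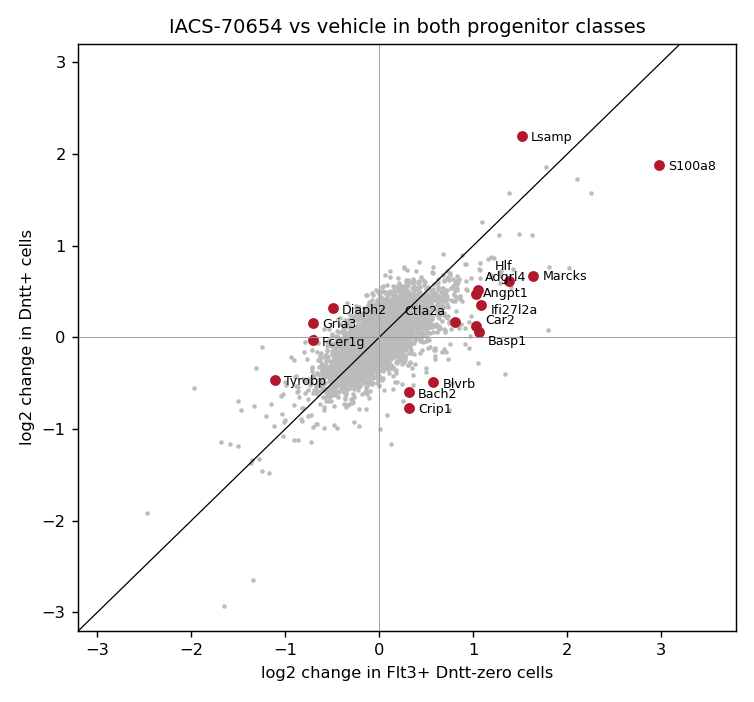
Log2 change from vehicle to IACS-70654 in Flt3+ cells without Dntt (x axis) and in Dntt+ cells (y axis) for 5109 genes; the diagonal marks equal changes. Red points are the 17 plotted genes with a called interaction, among them Hlf, Adgrl4 and Angpt1 below the diagonal and Gria3 above it.

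The CD45+Ter119- libraries of the same series, which were sorted without selection for c-Kit, held far fewer Dntt+ cells by the same filters. They made up 1.29% and 1.41% of cells in WT, 0.411% and 0.493% with vehicle and 0.617% and 0.520% under IACS-70654. At least 1 pro-B UMI was seen in 88.1% and 79.0% of them in WT, 66.7% and 66.7% with vehicle and 60.0% and 59.4% under IACS-70654. In this sort the WT libraries lay above all 4 tumor libraries. The treated libraries lay above the vehicle libraries by less than the distance to WT. The exact intervals for counting error overlapped, from 0.254% to 0.703% over the vehicle libraries and from 0.356% to 0.879% over the treated libraries. Median depth of kept cells was 4113 and 4276.5 UMIs in WT, 5330.5 and 5328 with vehicle and 6534 and 6596.5 under IACS-70654. The shares were not compared at equal depth in this sort, and the part of depth in them was not tested. Between 21 and 62 cells a library stand behind these shares, and no test was run on them.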

How the data were processed

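Lin-c-Kit+ bone marrow cells of 6 libraries (2 each of WT, vehicle and IACS-70654) were analyzed, with the 6 CD45+Ter119- bone marrow libraries for 1 comparison of shares; the 4 tumor libraries were not used beyond their number of barcodes. The deposited values were filtered matrices of raw UMI counts per gene and cell, which the authors made with Cell Ranger (7.2.0 in the file headers) on mm10 after multiplexed 3′ capture; Seurat appears in the submitters' processing notes. Cells were kept if their gene number lay above 200 and below 6000 and their mitochondrial share of UMIs did not exceed 10%, and cells with at least 2 Dntt UMIs were selected. The members, the 18 gene lists and the 13 marker lists were chosen with earlier results of these data known, and no list is independent evidence of its own direction.

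Counts were summed by library, genes with low counts were removed with filterByExpr, and groups were compared with edgeR (4.0.16) quasi-likelihood tests after TMM scaling, over all genes, with Benjamini-Hochberg adjustment. The fit over groups held all 6 libraries, and the fit over the Dntt+ and Flt3+ classes held 12 sums with the library as a block. Calls required an adjusted p below 0.01 and a log2 change beyond 0.5. Shares were compared with two-sided exact permutation tests over libraries, whose smallest possible p is 0.333 with 2 against 2. Cells hold 4926 to 7549 UMIs in the median, so a gene with few UMIs can be missed in a cell that expresses it.

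Named genes were the 10 called genes with the largest rise and the 10 with the largest fall that had a mean of at least 30 CPM and no overlap between groups (5 each way for IACS-70654 against WT and for interactions), and called list members with a mean of at least 10 CPM. Bst1, Oasl2, Ighm and Igkc lie outside this rule, and they and uncalled genes such as Crebbp were named after their values were seen. Mitochondrial genes, Xist and Tsix were not named, and some further genes are not reported here. A doublet caller (Scrublet in scanpy 1.11.5) marked 0 to 4 cells a library and was not used; leaving out the top 5% of doublet scores was an alternative instead. The others were DESeq2 (1.42.0), RLE size factors, no filter on low counts, a replicate block, thinning, other limits on Dntt and Flt3, removal of cells with pro-B UMIs or rich in S100a8, S100a9 or Igkc, and leaving out each library. The edgeR steps were tested on simulated counts with known changes; the DESeq2 alternative was not. R 4.3.3 and Python 3.11.15 were used.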

Additional observations from a re-analysis of the deposited data

Results flagged for a closer look

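The results below stand out because a test of the interaction found that the log2 change in the Dntt+ cells differed from that in the Flt3+ cells without Dntt; each value is the change in the Dntt+ cells minus that in the Flt3+ cells, called by edgeR over all genes.

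Between vehicle and WT, Car2, a carbonic anhydrase, differed by 1.58, being at 104 and 138 CPM in WT and 154 and 122 CPM with vehicle in the Dntt+ cells, and at 151 and 169 against 73.9 and 42.2 CPM in the Flt3+ cells. Car2 belongs to the erythroid and megakaryocyte list, and over its 11 genes the median interaction was 1.26 with 10 above 0, against 0.00 over all genes, Car2 being the 1 call. In the Flt3+ cells alone the median change from WT to vehicle was −1.15, with none above 0 and Gata1 and Apoe called lower, and in the Dntt+ cells it was −0.11 over 9. The part of erythroid RNA in the Car2 result was not tested. The differences were 1.03 for Blvrb, 0.99 for Hlf, 0.81 for Vamp5 and 0.50 for Adgrl4. They were −0.91 for Bcr, −0.81 for Ctr9 and −0.67 for Pde4d. The calls of Car2 and Pde4d held under each of 8 alternatives, and each of the others was lost under at least 1.

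Between IACS-70654 and vehicle, Gria3, a glutamate receptor subunit, differed by 0.90. It was at 207 and 144 CPM with vehicle and 195 and 236 CPM with IACS-70654 in the Dntt+ cells, and at 580 and 540 against 374 and 341 CPM in the Flt3+ cells. The differences were 0.79 for Diaph2, 0.70 for Fcer1g, 0.68 for Lsamp and 0.66 for Tyrobp. Crip1, a small LIM-domain protein, differed by −1.06, at 244 and 326 against 168 and 171 CPM in the Dntt+ cells and 67.3 and 74.5 against 91.3 and 89.5 CPM in the Flt3+ cells. The differences were −1.08 for S100a8, −1.07 for Blvrb, −1.0 for Basp1 and −0.97 for Marcks. Gria3 alone held under each of 8 alternatives, and Crip1 was lost only after thinning. Vehicle libraries enter both interactions, so Hlf, Adgrl4, Blvrb and Car2, which were called in each with opposite signs, are not independent results.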

How the results depend on the processing

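The share of Dntt+ cells was higher with IACS-70654 than with vehicle under each alternative tried, by 1.83 to 3.52 percentage points, and by 2.26 to 2.86 with 1 library left out. The share of vehicle minus WT (0.33 points) was 1.20 with at least 1 Dntt UMI and turned to −0.389 with at least 3 Dntt UMIs, −0.539 after thinning and −0.517 with a Flt3 UMI required, and ran from 0.0672 to 0.592 with 1 library left out. Calls between vehicle and WT (32) numbered 7 with DESeq2, 17 after thinning, 10 without cells carrying pro-B UMIs and 29 to 61 with 1 library left out, of which 61 without vehicle replicate 2, 55 without WT replicate 1, and 49 and 50 without IACS-70654 replicate 1 and 2. Calls between IACS-70654 and vehicle (340) numbered 79 with DESeq2, 139 after thinning (7773 genes tested) and 193 to 400 with 1 library left out, of which 193 without IACS-70654 replicate 2 and 210 without vehicle replicate 1. Calls between IACS-70654 and WT (273) numbered 70 with DESeq2, 124 after thinning, 160 without cells carrying pro-B UMIs and 168 to 306 with 1 library left out, of which 168 without WT replicate 1 and 176 without IACS-70654 replicate 2. Calls between the classes (660) numbered 405 after thinning and 566 to 728 with 1 library left out. Interaction calls fell from 10 to 3 for vehicle against WT and from 34 to 6 for IACS-70654 against vehicle after thinning, and ran from 7 to 15 and from 14 to 40 with 1 library left out. The causes of these shifts were not tested, beyond the fewer genes and counts that thinning leaves. Of the genes named for IACS-70654 against vehicle, 21 of 55 were called under each alternative that gave them a value, and none changed sign. Removal of cells with pro-B UMIs, of cells rich in S100a8, S100a9 or Igkc, and the requirement of a Flt3 UMI were chosen after seeing the data.

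Samples with the same replicate number did not visibly deviate together (correlations of 0.0595, 0.0092 and 0.0392). Deviations of single genes carry counting noise, so this check cannot show that the numbers are unpaired. With a replicate block the calls numbered 60 for vehicle against WT (32 without it), 393 for IACS-70654 against vehicle (340 without it) and 306 for IACS-70654 against WT (273 without it).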
